A study of Mus musculus with 12 samples.

Results

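Hepatocytes that lacked PGC-1alpha were compared with hepatocytes that carried it, both after infection with an adenovirus that encodes a control short hairpin RNA. The comparison rests on 6 of the 12 arrays of the series, chosen by sample title: 3 of PGC-1alpha -/- and 3 of PGC-1alpha +/+ cells. The other 6 arrays come from the same 6 mice after infection with a vector labelled shTLS, and enter the shared estimate of spread and 1 comparison below. All mice were C57BL/6, each array is 1 plated culture of primary hepatocytes, freed with collagenase, from 1 mouse, and sex and age are not in the labels. All groups shared the medium (10% serum, 100 nM dexamethasone, 100 nM insulin), a multiplicity of infection of 5 and harvest at 24 h after infection. The labels name no promoter or recombinase for the -/- genotype and do not give the part of the gene that is deleted.

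PGC-1alpha, the product of Ppargc1a, is a coactivator: it does not bind DNA itself but joins nuclear receptors and other transcription factors, among them the oestrogen-related receptors, PPARalpha, HNF4alpha, FOXO1 and NRF1, and recruits enzymes that open chromatin. In liver it is known for its induction in fasting, by glucagon and glucocorticoids, and for raising genes of gluconeogenesis, fatty acid oxidation and mitochondrial respiration. Ppargc1b and Pprc1 encode the related coactivators PGC-1beta and PRC.

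Genes of oxidative phosphorylation are textbook targets of these partners, so their promoter windows are shown first, for the genes in which the site of a partner was found. Windows are those of RefSeq on GRCm38.p6, from 250 bases before to 50 bases after the annotated start, 5′ to 3′. Capitals mark the response element of the oestrogen-related receptors (searched as TNAAGGTCA on both strands) in Sdhd, a subunit of complex II (chr9:50603800-50604099, minus strand), and in Atp5g3, a subunit of the ATP synthase (chr2:73911277-73911576, minus strand). In Cox6a1, a subunit of complex IV (chr5:115348909-115349208, minus strand), and in Uqcrc1, a subunit of complex III (chr9:108936398-108936697, plus strand), they mark the site of NRF1 (the 10 letters in capitals, which read the same on both strands). These letters describe the windows and are not evidence of binding.
Sdhd: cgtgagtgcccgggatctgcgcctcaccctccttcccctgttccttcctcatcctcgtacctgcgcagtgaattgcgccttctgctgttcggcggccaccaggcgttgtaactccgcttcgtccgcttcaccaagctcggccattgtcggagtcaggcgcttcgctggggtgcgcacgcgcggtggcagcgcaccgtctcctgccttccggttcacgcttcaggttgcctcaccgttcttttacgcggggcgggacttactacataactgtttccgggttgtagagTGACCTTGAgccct
Atp5g3: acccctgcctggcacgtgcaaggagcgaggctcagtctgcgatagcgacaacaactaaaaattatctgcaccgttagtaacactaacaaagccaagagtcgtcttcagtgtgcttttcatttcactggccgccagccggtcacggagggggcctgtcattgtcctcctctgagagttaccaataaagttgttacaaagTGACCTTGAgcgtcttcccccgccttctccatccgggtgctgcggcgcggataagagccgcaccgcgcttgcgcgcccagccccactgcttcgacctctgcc
Cox6a1: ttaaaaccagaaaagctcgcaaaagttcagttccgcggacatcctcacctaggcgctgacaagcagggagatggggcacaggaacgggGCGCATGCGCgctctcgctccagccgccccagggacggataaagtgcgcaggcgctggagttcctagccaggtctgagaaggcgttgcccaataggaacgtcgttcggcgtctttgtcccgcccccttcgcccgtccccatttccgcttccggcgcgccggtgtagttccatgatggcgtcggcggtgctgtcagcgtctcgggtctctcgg
Uqcrc1: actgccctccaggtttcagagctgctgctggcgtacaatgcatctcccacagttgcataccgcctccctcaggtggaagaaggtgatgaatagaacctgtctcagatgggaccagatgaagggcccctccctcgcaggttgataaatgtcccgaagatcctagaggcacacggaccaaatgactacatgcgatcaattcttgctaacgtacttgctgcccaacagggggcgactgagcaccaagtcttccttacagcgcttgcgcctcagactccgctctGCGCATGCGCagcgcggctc
Of 37 listed oxidative phosphorylation genes with a window, 2 held the first element and 2 the second (5.41% each), against 1.28% and 0.971% of all 32851 windows and 0.995% and 2.12% of the 9848 windows of genes tested.

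Between 22706 and 25921 of 41174 probes were well above background on the 6 arrays, and 0 spots were saturated. The arrays correlated with each other at 0.944 to 0.99 over all probes. The second +/+ array stood apart: its correlations with the other 5 were the lowest, it had the fewest probes above background, and it lay at 108 on the first principal component (44.1% of the variance) against -67 to 23.5 for the others. Arrays of the same number shared a slide, and each genotype always held the same position on it, so position and genotype cannot be told apart. Deviations from the group means correlated by 0.64, 0.225 and 0.631 within numbers and by at most 0.0369 between numbers, and the slide was therefore also used as a block. Xist was above background on all arrays and Ddx3y, Eif2s3y, Kdm5d and Uty on none.

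Ppargc1a itself was read by 1 probe, at 9.71, 9.4 and 9.04 in -/- cells, against 9.03, 10.39 and 8.23 in +/+ cells (quantile normalized log2 signal, the scale of all levels below). The groups overlapped, and the difference (-/- minus +/+, the direction of all differences below) was 0.17 (SE 0.67, limma adjusted p = 1.0), or -0.33 without the third +/+ array. The probe may lie outside the deleted part, so it does not test the genotype labels. Ppargc1b differed by -0.01 (SE 0.29) and Pprc1 by 0.32 (SE 0.24, from 10.98, 11.16 and 11.2 in -/- cells and 10.63, 10.83 and 10.91 in +/+ cells). Pprc1 was higher on all -/- arrays than on any +/+ array, as were 3.46% of all genes tested, and neither gene passed. Of 40 genes next to Ppargc1a on chromosome 5, 20 on each side, limma called 0 with and without the slide as a block. Before adjustment 2 of the 40 were under 0.05, and the median difference was 0.07. Over all genes tested 0.0943% were called (0.161% with the block) and 3.38% were under 0.05 before adjustment. The counts among 40 neighbours are near these shares and are no result about the region.

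No tested gene of the programmes that PGC-1alpha is known for was called. Over 27 lists of pathway genes and cell type markers, 450 of 515 genes were tested (50 others were on the array but too dim, 15 had no matched probe, Pck1 among them), and limma called 0 of them with or without the slide as a block. Over all 18027 genes tested 0.0943% were called (0.0333% higher and 0.061% lower in -/- cells), and 0.161% with the block (0.061% higher and 0.0999% lower). With shares this small, 0 of 450 is near the share of all genes and is no result about these lists. Before adjustment 10 of the 450 were under 0.05 (2.22%), against 3.38% of all genes, and 54 with the block (12%), against 8.95%.

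Genes of gluconeogenesis, enzymes and the regulators Foxo1, Creb1 and Crtc2, had lower means in -/- cells in 15 of 19 members, with a median difference of -0.39 (pairs by slide -0.41, -0.51 and -0.20), against a median of 0.03 over all genes, of which 46.3% were negative. Without +/+ array 1 the median was -0.11. limma called no member, and before adjustment 0 were under 0.05 (1 with the block). G6pc, glucose-6-phosphatase, read 6.73, 5.3 and 4.34 in -/- cells, against 8.43, 6.29 and 5.1 in +/+ cells. The -/- array was lower on every slide, but the groups overlapped widely and the difference of -1.15 (SE 0.96) did not pass. Fbp1, fructose-1,6-bisphosphatase, differed by -0.92 (SE 0.92), and its second -/- array, 12.54, lay above the second +/+ array, 12.03. Pcx, pyruvate carboxylase, differed by -0.54 (SE 0.58) and Pck2, the mitochondrial form of phosphoenolpyruvate carboxykinase, by -0.55 (SE 0.30). Pck2 read 12.09, 12 and 12.38 in -/- cells, against 12.89, 12.67 and 12.55 in +/+ cells, and the groups did not overlap, as for 3.81% of all genes in that direction. Foxo1, the partner of PGC-1alpha at gluconeogenic promoters (named after its values were seen), read 12.26, 11.07 and 11.74 in -/- cells, against 12.76, 12.53 and 11.94 in +/+ cells. Its difference was -0.72 (SE 0.36, adjusted p = 1.0).

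**Figure D1:**
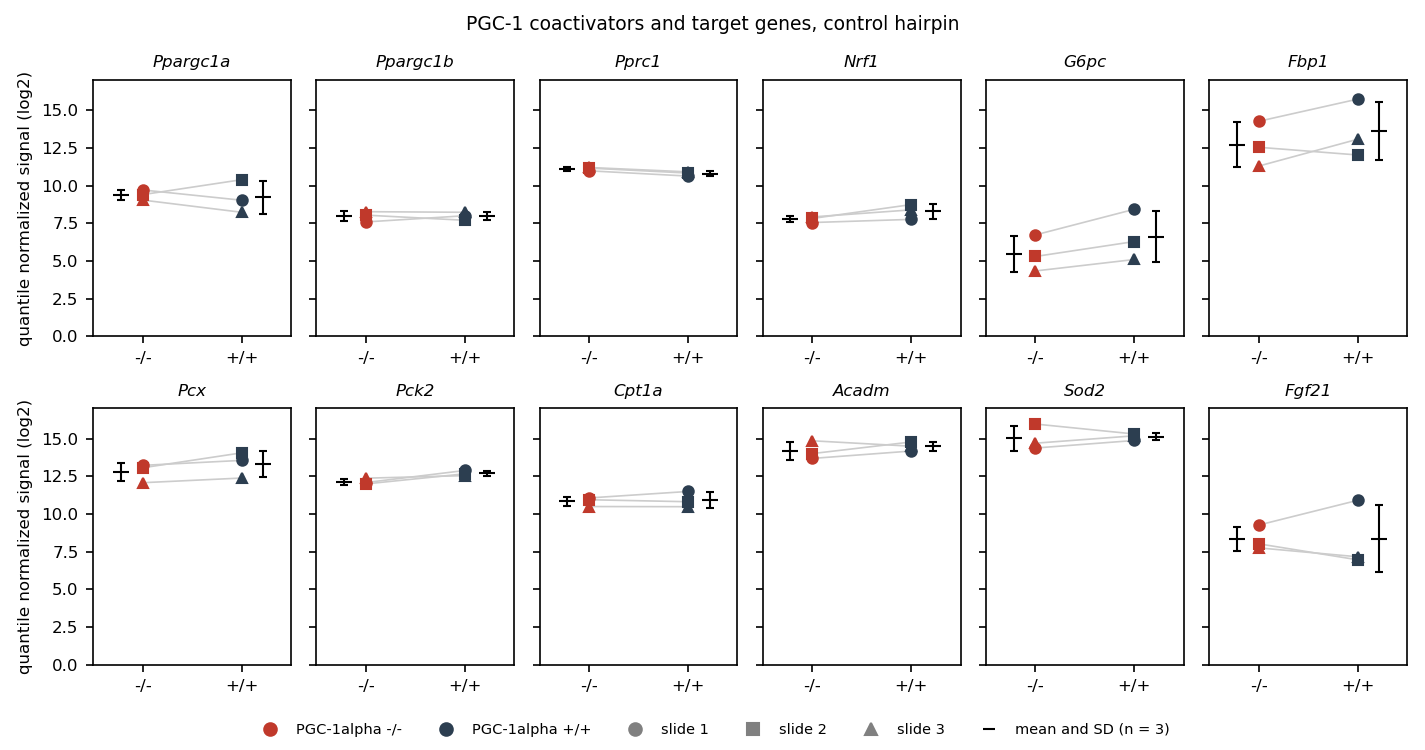
Quantile normalized log2 signal of PGC-1 coactivators, their partner Nrf1 and target genes under the control hairpin. Points are arrays (-/- left, +/+ right), symbols and grey lines join arrays of a slide, black bars are mean and SD (n = 3). G6pc, Fbp1, Pcx, Pck2, Nrf1 and Acadm had lower means in -/- cells, as had Cpt1a, Sod2 and Ppargc1b by smaller amounts. The groups overlapped in every panel but those of Pck2 and Pprc1.

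Other targets known from liver had a median of -0.16 over 14 tested members, 9 of them negative, or 0.12 without +/+ array 1. Cpt1a, which carries fatty acids into mitochondria, differed by -0.10 (SE 0.41), Acadm, the medium-chain acyl-CoA dehydrogenase, by -0.30 (SE 0.41), and the hormone Fgf21 by 0.00 (SE 0.95). Fgf21 read 9.27, 8.03 and 7.76 in -/- cells, against 10.91, 6.97 and 7.17 in +/+ cells, so the first slide ran against the other slides. The members under 0.05 before adjustment were Apoa4, an apolipoprotein, Lpin1, a phosphatidate phosphatase and coactivator, and Arntl, the clock factor BMAL1, all negative and named after their values were seen. Apoa4 read 10.68, 9.7 and 10.33 in -/- cells, against 12.99, 10.9 and 11.63 in +/+ cells. All its -/- arrays lay below all +/+ arrays, and the difference was -1.60 (SE 0.59, adjusted p = 1.0). Lpin1 differed by -0.94 (SE 0.41) and Arntl by -0.84 (SE 0.37).

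Genes of the respiratory chain differed by small amounts in both directions. The 47 oxidative phosphorylation genes, all tested, had a median difference of 0.00 and differences from -0.29 (Ndufa10) to 0.36 (Ndufs3), with standard errors of 0.20 to 0.40. Of the 47, 23 were positive, and limma called 0 in either fit, with 0 under 0.05 before adjustment. Ndufs1, a core subunit of complex I, read 12.95, 13.17 and 12.93 in -/- cells, against 13.13, 12.92 and 13.06 in +/+ cells (difference -0.02, SE 0.23). Of the genes whose promoters are printed above, Sdhd differed by 0.15 (SE 0.21), Atp5g3 by 0.23 (SE 0.28), Uqcrc1 by 0.02 (SE 0.24) and Cox6a1 by 0.00 (SE 0.21). Cox6a1 read 17.33, 17.26 and 17.47 in -/- cells, against 17.31, 17.28 and 17.47 in +/+ cells. Over all tested genes, the 98 with the element of the oestrogen-related receptors and the 209 with the NRF1 site in the window had a median of -0.01 each, and 0 were called (1 and 0 with the block).

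The transcription factors behind these genes had a median of 0.01 over 19 tested regulators. Tfam, the packaging and transcription factor of mitochondrial DNA, differed by -0.02 (SE 0.39), Esrra, an oestrogen-related receptor, by 0.27 (SE 0.31), and Nrf1 by -0.54 (SE 0.30). Ppara, the fatty acid receptor, had the most negative value, -1.21 (SE 0.80, adjusted p = 1.0), from 8.42, 8.49 and 7.68 in -/- cells and 10.07, 10.18 and 7.98 in +/+ cells. The third +/+ array read below 2 of the 3 -/- arrays, so the groups overlapped. The tricarboxylic acid cycle had a median of -0.06 over 16 genes, with Cs, citrate synthase, at 0.20 (SE 0.25) and Ogdh at -0.25 (SE 0.31). Fatty acid oxidation and ketogenesis had a median of -0.15 over 28 genes, 19 of them negative (0.18 without +/+ array 1), with Cpt2 at -0.11 (SE 0.44) and Acadl at -0.38 (SE 0.30). Antioxidant genes had a median of 0.02 over 24 genes, among them Sod2, the manganese superoxide dismutase of mitochondria, at -0.11 (SE 0.50), and Prdx3, a mitochondrial peroxiredoxin, at 0.07 (SE 0.31). In these 4 lists limma called 0 genes, with 0 under 0.05 before adjustment; with the block that number was 2 regulators, 1 gene of the cycle, 2 of fatty acid oxidation and 0 antioxidant genes.

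**Figure D2:**
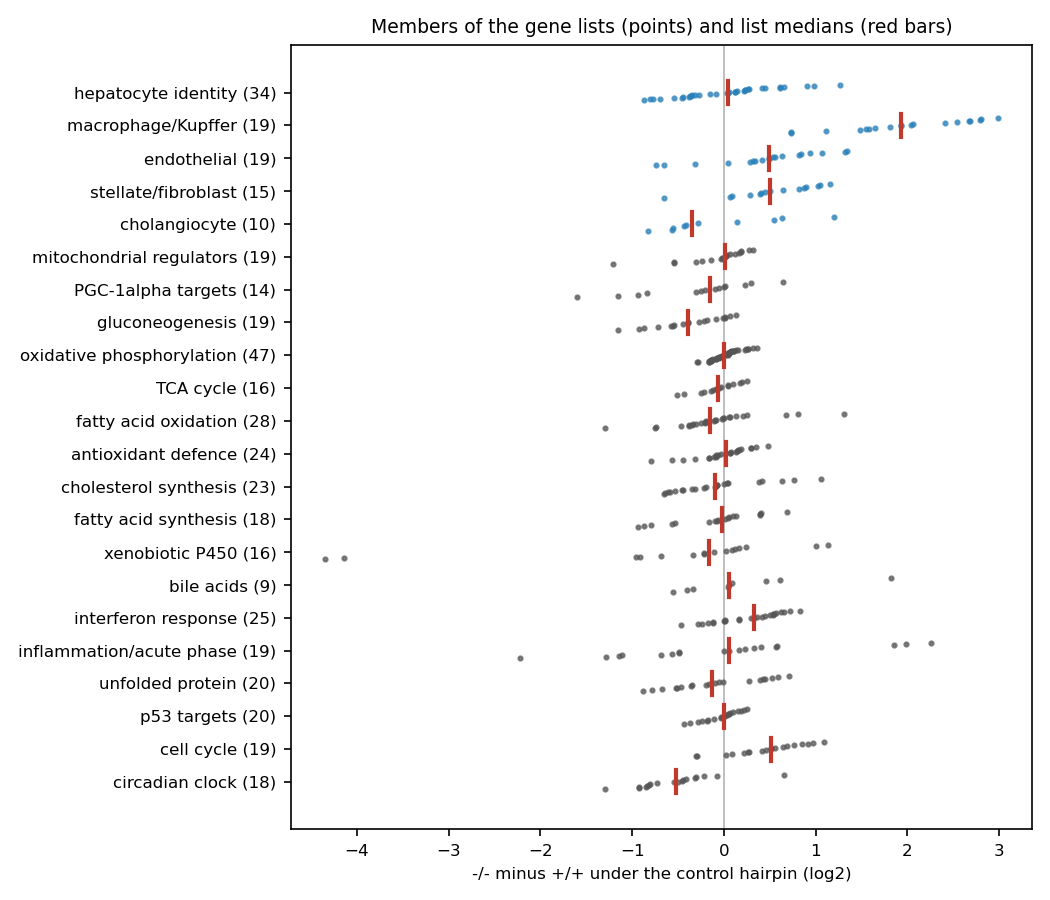
Difference of each tested list member under the control hairpin (-/- minus +/+, log2), with the number tested in brackets; blue points are cell type markers, grey points pathway genes, and red bars list medians. Oxidative phosphorylation genes lie between -0.29 and 0.36, all 19 macrophage markers lie above 0 with a median of 1.93, and 2 cytochromes lie below -4.

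Across the whole array 17 genes differed between genotypes (limma with Benjamini-Hochberg adjustment over 18027 genes), 6 higher and 11 lower in -/- cells, while 609 were under 0.05 before adjustment. With only the 6 control hairpin arrays 7 genes were called (0.0388%, 3 higher and 4 lower), and with those arrays and the block 3 (0.0166%). Of the named genes below, Klk1b24 kept its call with the 6 arrays (adjusted p = 0.024, and 0.18 with the block), while Pop4 (0.118), Bmp2k (0.224), Ppp1r42 (0.241), Tff3 (0.271), Zfp947 (0.391) and Rnase2a (0.497) lost it. Only 7 of the 17 had a symbol: Klk1b24 and Rnase2a were higher, and Tff3, Pop4, Ppp1r42, Bmp2k and Zfp947 were lower. They lie on chromosomes 1, 5, 7, 14 and 17, with 2 each on chromosomes 7 and 17, and none is a listed gene. In all 17 the groups did not overlap, as for 7.27% of all genes. In 8 of the 17 the gene was above background on 0 of 3 arrays of a genotype (5 in -/-, 3 in +/+), against 72 of all 18027 genes (0.399%). For these 8 only bounds can be given, from at least 3.25-fold to at least 61.8-fold, and the other 9 differed by 1.71 to 7.33 in size. Among those 9, Tff3, Rnase2a and 1 feature without a symbol were not above background on every array of the dimmer genotype. Their sizes, the 7.33 of Tff3 included, thus rest in part on signals not above background.

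Klk1b24, a serine protease of the kallikrein family on chromosome 7, read 7.71, 6.57 and 8.64 in -/- cells, against 1.06, 1.13 and 1.06 in +/+ cells. It was above background on all -/- arrays and on no +/+ array, and was at least 16.2-fold higher in -/- cells (limma adjusted p = 8.33e-05, means 7.64 ± 1.03 and 1.08 ± 0.04, SD, n = 3 each). Each such bound sets the bright group against the lowest signal above background on the arrays of the dim group. The kallikrein genes are a cluster of close copies, so the probe may also read relatives. The call held with every array left out in turn.

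Pop4, a protein subunit of the ribonucleases P and MRP, also on chromosome 7, read 10.96, 10.81 and 10.85 in -/- cells, against 13.51, 12.99 and 13.75 in +/+ cells. The -/- arrays had an SD of 0.08 and lay below every +/+ array, and Pop4 fell by 2.54 (SE 0.26, adjusted p = 0.00189, 5.84-fold). Its other probe gave -1.34. This call too held with every array left out, but not with only the 6 control hairpin arrays (adjusted p = 0.118, and 0.301 with the block).

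Tff3, a secreted trefoil peptide of mucous epithelia, read 2.32, 5.06 and 1.79 in -/- cells, against 9.98, 12.01 and 9.17 in +/+ cells. It was above background on 1 of 3 -/- arrays and on all +/+ arrays, and the -/- array was lower on every slide (differences of -7.66, -6.95 and -7.38). Tff3 fell by 7.33 (SE 0.97, adjusted p = 0.0202, and 3.16e-05 with the block). The adjusted p was 0.142 without -/- array 1, 0.0905 without -/- array 3, 0.0705 without +/+ array 1 and 0.0666 without +/+ array 2. Tff3 is made by bile duct epithelium too, and the cholangiocyte markers averaged 10.28, 9.61 and 9.25 on the -/- arrays, against 9.66, 10.52 and 9.13 on the +/+ arrays. Their part in the difference was not tested.

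Rnase2a, a ribonuclease of the eosinophil-associated family, read 9.43, 9.44 and 8.29 in -/- cells, against 5.84, 2.85 and 4.81 in +/+ cells. It rose by 4.56 (SE 0.66, adjusted p = 0.035), and was above background on 2 of 3 +/+ arrays. With the mouse as a random block, since each mouse gave 2 arrays to the fit, its adjusted p was 0.0575. The call was lost without -/- array 1 (adjusted p = 0.235), 2 (0.205) or 3 (0.0613) and without +/+ array 3 (0.115). Macrophage markers averaged 10.89, 10.55 and 7.85 on the same -/- arrays, against 9.36, 6.47 and 7.54 on the +/+ arrays, and their part in it was not tested. This family too has close copies.

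The other named falls were smaller in size or less steady. Ppp1r42, a regulatory subunit of protein phosphatase 1, read 8, 8.93 and 8.09 in -/- cells, against 11.37, 12.38 and 11.06 in +/+ cells, and fell by 3.26 (SE 0.48, adjusted p = 0.0352). Bmp2k, a kinase induced by bone morphogenetic protein 2, read 6.59, 6.97 and 7.15 in -/- cells, against 9.39, 10.94 and 10.11 in +/+ cells, and fell by 3.24 (SE 0.48, adjusted p = 0.0412). Its other probes gave -0.21 and -0.57, and the mean of its probes -1.34 (adjusted p = 1.0). Zfp947, a zinc finger protein, read 5.44, 5.25 and 5.67 in -/- cells, against 7.33, 6.92 and 7.25 in +/+ cells, and fell by 1.71 (SE 0.26, adjusted p = 0.0423). Leaving out any 1 of the 6 arrays ended the calls of Ppp1r42 (adjusted p from 0.0623 to 0.244) and Zfp947 (0.0732 to 0.293), and the mouse as a random block also ended that of Zfp947 (0.073). That of Bmp2k was lost without any -/- array (0.116 to 0.255) and without +/+ array 2 (0.121) or 3 (0.158).

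**Figure D3:**
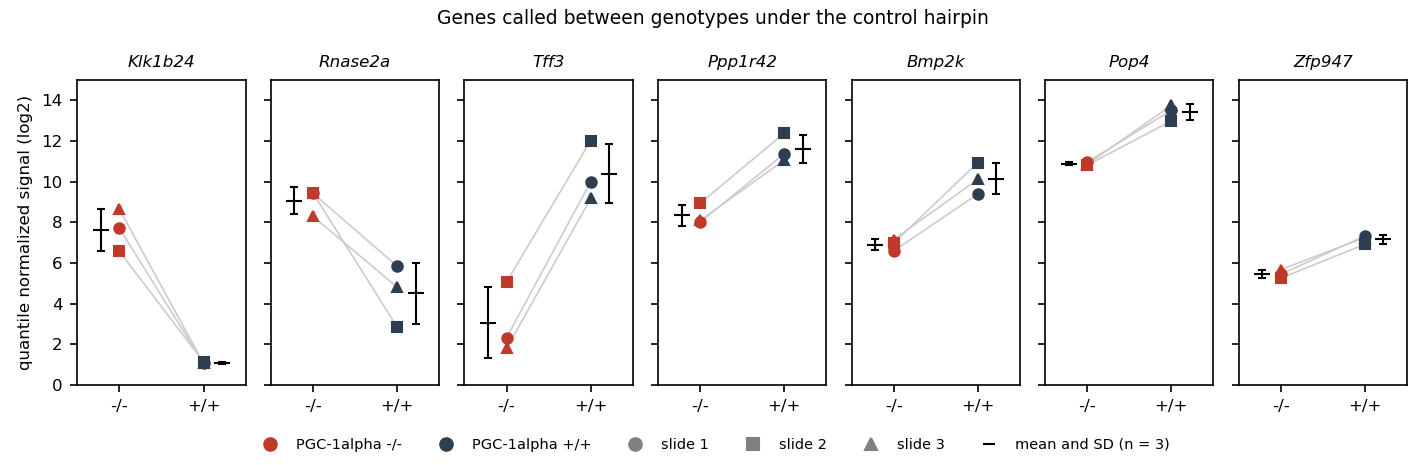
Quantile normalized log2 signal of the 7 called genes with a symbol (-/- left, +/+ right); symbols and grey lines join arrays of a slide, black bars are mean and SD (n = 3). Klk1b24 lies at 1.06 to 1.13 on the +/+ arrays and at 6.57 to 8.64 on the -/- arrays, and Tff3 lies at 9.17 to 12.01 on the +/+ arrays and at 1.79 to 5.06 on the -/- arrays.

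The other 10 called features carry an accession that has no symbol in the RefSeq table used, 4 higher and 6 lower in -/- cells; 4 of them are given here, chosen after their values were seen. BB098755 read 1.19, 1.18 and 1.2 in -/- cells, against 8.8, 9.37 and 9.13 in +/+ cells, which was at least 61.8-fold lower in -/- cells (adjusted p = 5.47e-07). AK017277 read 1.21, 1.23 and 1.28 in -/- cells, against 8.78, 9.17 and 8.13 in +/+ cells, at least 46.6-fold lower (adjusted p = 1.9e-05). Both were above background on no -/- array. NM_010707 was at least 8.24-fold higher in -/- cells (7.19, 7.04 and 6.78, against 4.02, 3.27 and 3.6 in +/+ cells, adjusted p = 0.000194), and NM_021304 rose by 2.99 (SE 0.25, adjusted p = 0.000405), with 3.00 by its other probe. Of the 17 calls, 10 held with each array left out in turn, these 4 among them. With only the 6 arrays and the block, NM_010707 (limma adjusted p = 0.163) and NM_021304 (0.182) lost their calls. BB098755 (0.0262) and AK017277 (0.0408) kept theirs. With normexp background correction NM_010707 gave 0.57 and lost its call (limma adjusted p = 0.104), while the other features given here kept theirs.

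With the slide as a block 29 genes were called, 11 higher and 18 lower, which included all 17 and added 12, 7 of them with a symbol. Lower in -/- cells in that fit were Cyp2s1, a cytochrome P450 of epithelia (-3.12, block adjusted p = 0.00276), Adra2a, an adrenergic receptor that inhibits adenylyl cyclase (-3.54, 0.0303), Zap70, a kinase of T cell receptor signalling (-2.77, 0.0291), Defb1, an epithelial defensin (-2.31, 0.0303), and Gfer, a sulfhydryl oxidase of the mitochondrial intermembrane space (-1.42, 0.0427). Higher were Atp2c1, a calcium pump of the Golgi (1.92, 0.0371), and Myh7, a myosin heavy chain of slow muscle (2.17, 0.0427, above background on 1 of 3 +/+ arrays). Cyp2s1 read 8.23, 10.56 and 8.93 in -/- cells, against 11.41, 14.38 and 11.28 in +/+ cells, with array 2 the highest in both genotypes. Adra2a read 4.78, 5.5 and 6.69 in -/- cells, against 8.52, 9.69 and 9.37 in +/+ cells, and its other probes gave -3.00 and -3.45. The other probe of Defb1 gave -2.43, while those of Atp2c1 gave -0.02 and 0.08. That of Myh7 gave 1.74 and was above background on only 2 of the 6 arrays. None of these 7 passed without the block.

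Other genes whose groups did not overlap, named for the smallest p, did not reach the threshold. Stbd1, a starch-binding protein of glycogen particles, read 10.07, 9.68 and 10.37 in -/- cells, against 13.42, 13.59 and 11.81 in +/+ cells (difference -2.90, SE 0.45, adjusted p = 0.0517). Abcb1b, an efflux pump of the P-glycoprotein type, read 14.52, 14.72 and 13.56 in -/- cells, against 11.01, 12.67 and 11.79 in +/+ cells (2.44, SE 0.44, adjusted p = 0.119), and its other probes gave 2.08 and 2.49. Igsf23 gave 3.61 (other probe 3.93), Wfdc18 3.61 (3.83; above background on 1 of 3 +/+ arrays), Gm3696 2.60, 4930555G01Rik 2.30 and Nudcd3 1.13, with adjusted p from 0.106 to 0.501. The other probes of 4930555G01Rik gave 1.1, 1.77 and 1.44, above background on 5, 3 and 1 of the 6 arrays. Fn3krp, above background on no +/+ array, was at least 1.81-fold higher in -/- cells (means 4.48 in -/- and 1.75 in +/+ cells, adjusted p = 0.106). Cphx1, above background on no -/- array, was at least 3.23-fold lower (means 2.09 in -/- and 4.85 in +/+ cells, adjusted p = 0.0571). Arl4d gave -1.87 (adjusted p = 0.226) and Zfp146 -1.77 (0.230), but the other probe of Zfp146, above background on all 6 arrays, gave -0.17. None of these passed in either fit.

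The same mice were also measured with shTLS, on 6 further arrays that give group means of their own. Both comparisons come from the 12-array fit and share its estimate of spread. There the genotypes differed in 14 genes, 0.0777% of those tested. All 17 genes called under the control hairpin had the same sign with shTLS, and 12 of them were called there as well. Tff3 gave -7.21 with shTLS and -7.33 with the control hairpin, Pop4 -2.41 and -2.54, and Rnase2a 5.03 and 4.56. Since each mouse gave a culture to both vectors, these values repeat the measurement and do not add mice. The difference between both genotype effects passed for 0 genes in limma (30 genes, or 0.166%, were under 0.05 before adjustment; smallest adjusted p 1.0).

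**Figure D4:**
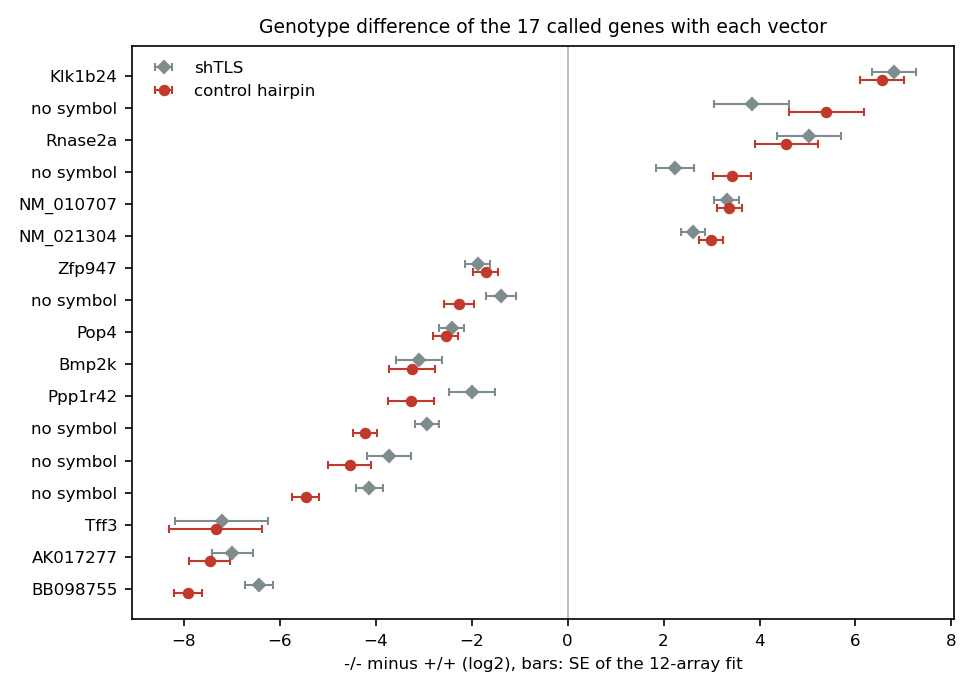
Genotype difference (-/- minus +/+, log2, with the SE of the 12-array fit) of the 17 genes called under the control hairpin, with shTLS (grey diamonds) and with the control hairpin (red circles). Every gene lies on the same side of 0 with both vectors; the values of 8 genes, Klk1b24, NM_010707, AK017277 and BB098755 among them, are set against signals not above background and are no measured sizes; features whose accession matched no symbol and that are not named in the text are labelled no symbol.

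Among drug-metabolising cytochromes, 2 members of the Cyp2b family stood out below the rest without passing. Cyp2b10 read 5.87, 5.01 and 9.52 in -/- cells, against 12.06, 10.47 and 10.93 in +/+ cells (difference -4.35, SE 1.18, adjusted p = 0.705). Cyp2b9, named after its values were seen, read 8.91, 7.82 and 12.05 in -/- cells, against 14.77, 12.94 and 13.51 in +/+ cells (-4.14, SE 1.05, adjusted p = 0.558). In both, all -/- arrays lay below all +/+ arrays, the third -/- array was the nearest, and the probes of such close paralogs may read each other. The nuclear receptor Nr1i3 differed by 0.02 (SE 0.46), Cyp3a11 by -0.69 (SE 0.98), and the median of the 16 tested genes was -0.16.

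Lipid synthesis showed no common direction. Cholesterol synthesis had a median of -0.10 (8 of 23 positive) and fatty acid and triglyceride synthesis -0.02 (9 of 18). Srebf1, the lipogenic transcription factor, differed by 0.10 (SE 0.28). Fasn, the fatty acid synthase, read 15.42, 15.82 and 15.15 in -/- cells, against 14.89, 14.36 and 15.08 in +/+ cells. The -/- arrays were all above the +/+ arrays, the third slide only by 0.07, and the difference of 0.69 (SE 0.29, adjusted p = 1.0) did not pass. Bile acid genes had a median of 0.06 over 9 tested members, with Cyp7a1 too dim to test.

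Clock genes were negative in 17 of 18 tested members, with a median of -0.52, of which the second slide gave -1.27 and the others -0.42 and -0.10. Without both arrays numbered 2 the median was -0.22. Per1, a repressor of the clock, differed by -0.92 (SE 0.43) and Clock by -0.46 (SE 0.27), and Dbp, an output factor and the 1 positive member (named after its value was seen), by 0.66 (SE 0.29). Cell cycle genes were positive in 17 of 19 members with a median of 0.51, and interferon response genes in 19 of 25 with 0.33. Both medians rested on +/+ array 2: without it they were 0.07 and -0.01. Plk1, a mitotic kinase named after its values were seen, read 13.96, 14.43 and 13.27 in -/- cells, against 14.32, 10.9 and 13.55 in +/+ cells, so +/+ array 2 alone was low. Isg15, a ubiquitin-like interferon product, differed by 0.57 (SE 0.58). Unfolded protein response genes had a median of -0.13, p53 targets 0.00 and inflammation genes 0.06 (-0.68 without -/- array 2, 0.43 without -/- array 1 and 0.40 without +/+ array 2), and in none of these lists did a member pass. Socs3, a feedback inhibitor of cytokine signalling named after its values were seen, differed by 0.58 (SE 0.25).

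Cell content was read from marker lists beside these results. Hepatocyte markers had a median difference of 0.05 (-0.33 without +/+ array 2), 19 of 34 positive and means per array of 12.18, 11.91 and 11.54 in -/- cells, against 12.96, 11.05 and 11.55 in +/+ cells. All 34 were above background on every array. Alb, albumin, read 17.44, 16.94 and 17.03 in -/- cells, against 17.75, 17.55 and 17.19 in +/+ cells (-0.36, SE 0.24). Hnf4a, a liver nuclear receptor, differed by 0.41 (SE 0.61), while its other probes gave -0.11 and -0.19. The means of both genotypes overlapped, and the highest and the lowest array were both +/+.

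Macrophage and Kupffer cell markers were higher in mean in -/- cells for all 19 tested members, with a median of 1.93 and differences from 0.73 to 2.99, against 53.7% positive among all genes. None passed in either fit. Before adjustment 1 was under 0.05, Lyz2 (named after its values were seen, 1.81, SE 0.63), against 3.38% of all genes. With the block 15 were, against 8.95% of all genes. Markers of 1 cell type are not independent of each other, so the 15 are not separate results. Clec4f, Vsig4, C1qa and Cd163 were above background on 2 of 3 +/+ arrays and entered only through the -/- arrays, so the filter favoured their sign. Among markers too dim to test, Timd4 read 4.71, 1.14 and 1.66 in -/- cells, against 3.58, 1.25 and 3.08 in +/+ cells. Itgam read 5.59, 6.25 and 2.13 in -/- cells, against 4.08, 2.27 and 1.94 in +/+ cells. Of 21 markers with a probe, 21, 20 and 19 were above background on the -/- arrays, against 20, 15 and 19 on the +/+ arrays. Their summed linear signal was 88986, 102533 and 15314 in -/- cells, against 26128, 8662 and 12339 in +/+ cells. The third -/- array thus lay below the first +/+ array, and the pairs by slide gave medians of 1.59, 4.18 and 0.31. Without +/+ array 2 the median was 1.22, without -/- array 3 it was 2.91, and without both arrays numbered 2 it was 0.78. Clec4f, a lectin of Kupffer cells, read 10.73, 5.54 and 5.66 in -/- cells, against 8.43, 1.37 and 4.11 in +/+ cells. Vsig4, a complement receptor of Kupffer cells, read 10.87, 10.08 and 6.89 in -/- cells, against 8.92, 4.02 and 6.51 in +/+ cells, and Adgre1, the F4/80 antigen, 9.68, 12.66 and 7.46 in -/- cells, against 8.73, 8.13 and 7.15 in +/+ cells. In bulk cultures fewer cells of a type and less RNA per cell cannot be told apart, and the part of these cells in the other differences was not tested.

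Endothelial markers had a median of 0.49 (16 of 19 positive) and stellate cell and fibroblast markers 0.50 (14 of 15). The second rested on -/- array 1: Col1a1 read 13.86 there and 10.68 and 8.87 on the other -/- arrays, against 12.02, 9.87 and 8.9 in +/+ cells, and without that array the median was -0.20 and that of endothelial markers 0.08 (0.25 without +/+ array 2). Endothelial Tie1, Clec4g and Vwf and stellate Lum, Bgn and Ngfr were above background on 2 of 3 +/+ arrays. They entered only through the -/- arrays, so the filter favoured a positive sign, although Vwf was negative. Cholangiocyte markers had a median of -0.35 (4 of 10 positive; 0.36 without +/+ array 2), with Krt19, a keratin of bile ducts, at 13.28, 12.74 and 10.64 in -/- cells, against 12.41, 14.89 and 10.66 in +/+ cells. Of 17 lymphocyte markers only 4 to 9 per array were above background, and of 9 neutrophil markers 1 to 7. The 1 tested erythroid marker, Hbb-bt, was at 9.8 on -/- array 1 and between 4.64 and 5.73 on the other 5 arrays. No marker of these lists passed in either fit.

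**Figure D5:**
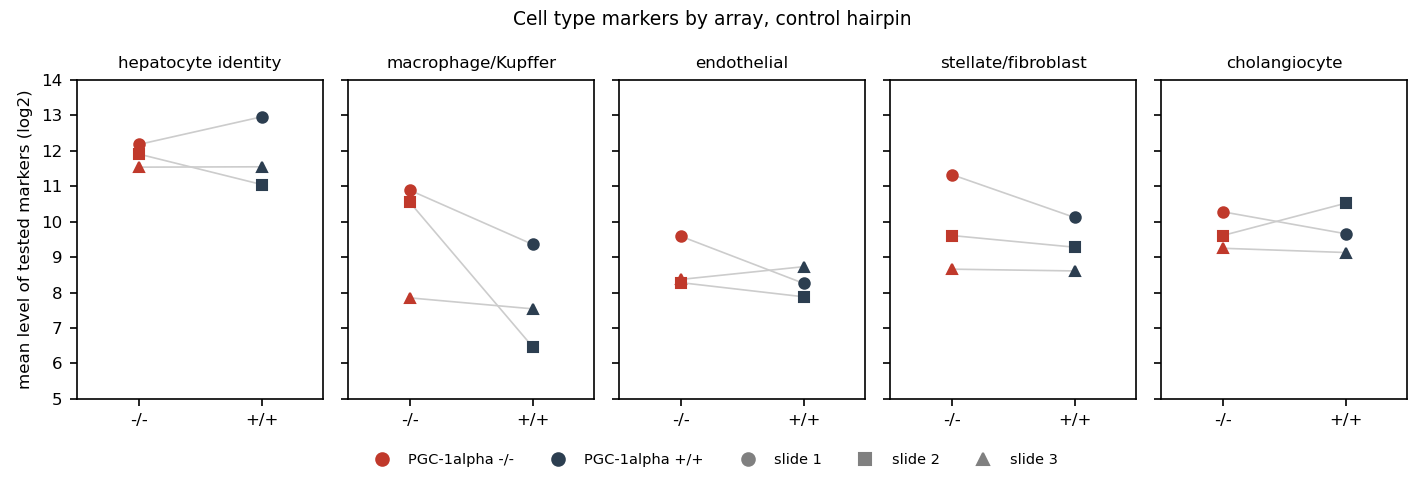
Mean log2 level of the tested markers of each cell type by array (-/- left, +/+ right), with symbols and grey lines joining arrays of a slide. Hepatocyte markers lie between 11.05 and 12.96 with both genotypes mixed, while macrophage markers are higher in -/- than in +/+ cells on each slide, most on slide 2 (10.55 in -/-, 6.47 in +/+).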

How the data were processed

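Total RNA was labelled with Cy3 and hybridized to 1-colour Agilent whole mouse genome arrays, and signals were extracted with Feature Extraction 10.1.1.1, per the submitters' processing notes. The authors' deposited table holds log2 values that the authors made by setting signals under 1 to 1 and quantile normalizing the 12 arrays, per the series' design text. The deposited array files hold processed signals as linear intensity, background-subtracted and not normalized between arrays, and other columns with flags of 0 or 1, per the file headers; the flags chose probes and the intensities served for alternatives.

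A probe was kept if well above background on all 3 arrays of either genotype (23775 of 41174), and a gene is its brightest kept probe (18027, of which 12282 are named through RefSeq accessions of GRCm38.p6). The array files use build mm8, so no positions of theirs are given. limma 3.58.1 in R 4.3.3 fitted 4 group means to 12 arrays (8 residual degrees of freedom); a gene was called where its p, adjusted after Benjamini and Hochberg, was under 0.05. An exact test of 3 against 3 arrays cannot go below a p of 0.1. The block was the assay number, which is also the slide. Named are Ppargc1a, Ppargc1b and Pprc1, called genes with a symbol, filled up to 10 per direction with the smallest p among groups that do not overlap, genes called with the block, and the first 4 tested members of each list. Members and lists were chosen with earlier results of these data known. Lists were described without a set test. Some genes that this rule names are not reported here. The number of arrays limits precision. Without the block, the p-values rest on the spread between cultures within groups. The 12-array fit treats the cultures of a mouse under both vectors as independent. Their deviations from the group means nevertheless correlated by 0.586 within a mouse (limma estimate over all genes). With the block, the p-values rest on the spread left after slide differences are removed. With only the 6 control hairpin arrays 7 genes were called, and 3 with those arrays and the block. The method was tested on simulated data with independent spread on each array, which does not test the fit under dependence within slides or mice.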

Additional observations from a re-analysis of the deposited data

Results flagged for a closer look

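The feature NM_176993, which has no symbol in the table used, differed by -1.04 between genotypes (-/- minus +/+) with shTLS, lower in -/- cells on every slide, and by 0.73 under the control hairpin, higher in -/- cells on every slide. Opposite signs on all slides drew attention to it, but the 0.73 is set against signals not above background and is no measured size: the bound is at least 1.01-fold. With the control hairpin the -/- arrays read 3.55, 3.31 and 4.04 and the +/+ arrays 2.63, 3.03 and 3.05, none of these +/+ arrays above background. The difference between both genotype effects was tested in limma and did not pass (adjusted p = 1.0).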

How the results depend on the processing

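The 17 calls became 4 with normexp background correction, 3 when a probe had to be above background on all 6 arrays, 7 with only the 6 control hairpin arrays, 31 with array weights, and 29 with the slide, which pairs the arrays, as a replicate block (3 with the block and only the 6 arrays). The filter on all 6 arrays left untested the 8 called genes above background on 0 of 3 arrays of a genotype. Tff3, Rnase2a and 1 feature without a symbol were also untested there, so that drop was partly fixed by the filter. Ppp1r42, Bmp2k and Zfp947 were tested there and lost their calls (limma adjusted p = 0.0828 each). Leaving out 1 array gave 11 to 15 calls, the fewest, 11, without -/- array 1. Leaving out both arrays numbered 2, an alternative chosen after seeing the data, gave 12, and the block without +/+ array 2, chosen likewise, 18. The other settings gave 12 to 21, among them 15 with a random term for the mouse (deviations from group means correlated by 0.586 within a mouse). That term ended the calls of Rnase2a, Zfp947 and 1 feature without a symbol. The block ended none of the 17 calls and added 12. Counts of 0 for list members, neighbours of Ppargc1a and the difference between genotype effects were 0 in all settings run. Of 2731 values of single genes under the alternatives 98 lost and 39 gained a call, and 0 called values changed sign, while 165 uncalled values had the other sign. With normexp Klk1b24 gave 1.23 (limma adjusted p = 0.364), Tff3 -2.91 (0.429) and Rnase2a 1.56 (0.0629), where an offset of 50 is added to every signal. Scaled to the spike-ins, the median of all genes was 0.11 in place of 0.03. Of 539 list medians 47 moved beyond their spread. Marker means differed with 1 array left out by -0.38 to 0.58 (hepatocyte) and 1.31 to 2.93 (macrophage).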
